A study of Arabidopsis thaliana with 6 samples.

Results

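A set of 10 nuclear genes of chloroplast redox control was followed in far-red-treated seedlings of wild type and of the phytochrome A mutant phyA-1. They are 6 thioredoxin genes (TRXM1, TRXM2, TRXM4, TRXF1, TRXF2 and TRXZ), the NADPH-thioredoxin reductase gene NTRC, and 3 peroxiredoxin genes (2CPA, 2CPB and PRXQ). These 10 were taken by locus identifier from the 33557 genes of the deposited table, all 10 were present, and the authors tested all 10. Polyadenylated RNA came from whole Arabidopsis thaliana seedlings, all of the accession Landsberg erecta, with 3 libraries of wild type and 3 of the phyA-1 mutant. Every seedling had grown 4 days in darkness and then stood 3 hours in far-red light, and no group kept in darkness was used here. The labels name the allele phyA-1 and the wild type without describing the lesion, so phyA-1 stands here for a single mutant line. Levels are the authors' pooled FPKM values (fragments per kilobase of transcript, relative to the mapped total), 1 for each genotype and with no SD. Depth per library is unknown. Where a pair of levels follows, wild type comes first and the mutant second.

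Thioredoxins are small proteins that reduce disulfide bonds in other proteins through a pair of active-site cysteines. In chloroplasts, electrons reach them from photosystem I through ferredoxin and ferredoxin-thioredoxin reductase, which ties enzymes of the Calvin cycle to the light. NTRC draws instead on NADPH and carries its own thioredoxin domain, and it is the main reductant of the 2-Cys peroxiredoxins, which break down hydrogen peroxide. TRXz differs from the others in being a component of the plastid-encoded RNA polymerase complex.

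The stretch around the active site is shown first, since the 6 thioredoxin genes and NTRC share that site. The lines give 42 bases of coding sequence each, 5′ to 3′ on the coding strand, from the RefSeq gene models on assembly TAIR10.1. All bases printed here are of that reference, and the sequence of the Landsberg erecta seedlings was not read. The 12 capitals are the codons of the Cys-Gly-Pro-Cys active site.
TRXM1: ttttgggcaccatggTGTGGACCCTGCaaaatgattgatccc
TRXM2: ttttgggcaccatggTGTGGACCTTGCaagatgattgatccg
TRXM4: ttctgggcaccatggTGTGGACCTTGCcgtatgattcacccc
TRXF1: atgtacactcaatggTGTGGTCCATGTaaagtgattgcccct
TRXF2: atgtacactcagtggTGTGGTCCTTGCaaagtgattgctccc
TRXZ: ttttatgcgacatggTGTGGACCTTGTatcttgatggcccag
NTRC: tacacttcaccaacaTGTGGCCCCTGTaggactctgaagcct
These lie at chr1:917194-917235 (minus strand) for TRXM1, chr4:1562792-1562833 (minus) for TRXM2, chr3:5189206-5189247 (plus) for TRXM4, chr3:2124891-2124932 (plus) for TRXZ and chr2:17376728-17376769 (minus) for NTRC. In TRXF1 (chr3:588961-589312, minus) and TRXF2 (chr5:5364190-5364940, minus) an intron interrupts the stretch. In NTRC it lies in the thioredoxin domain.

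The peroxiredoxin counterpart is the site of the peroxidatic cysteine, shown for the 2-Cys copies because 1 of them was called and the other was not. The 18 capitals are the codons from Phe to Glu around that cysteine.
2CPA: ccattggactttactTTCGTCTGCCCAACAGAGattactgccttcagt
2CPB: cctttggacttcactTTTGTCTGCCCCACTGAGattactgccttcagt
Both stretches are interrupted by an intron, in 2CPA at chr3:3673066-3673208 and in 2CPB at chr5:1920251-1920387, each on the plus strand.

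As a check of the genotype labels, PHYA (AT1G09570) had 167 FPKM in wild type and 16.0 in the mutant. Of the markers that describe the tissue, 2 of 3 shoot mesophyll genes fell, with summed levels of 7580 and 4741 FPKM. Those that fell were LHCB2.1 (407 and 51.8 FPKM) and LHCB1.2 (1182 and 223 FPKM). RBCS1A (5991 and 4466 FPKM), which makes up most of the sum, was not called. Of 3 root hair genes, 1 rose (summed 39.6 and 49.2 FPKM), and of 5 seed storage genes, 2 rose (summed 11.5 and 34.6 FPKM). By the same threshold, given below, 8.54% of all tested genes fell and 8.61% rose. None of these markers was at 0 in either genotype. The part these tissues have in the results below was not tested, and in whole seedlings fewer cells of a type and less RNA per cell cannot be told apart.

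In phyA-1, 8 of the 10 genes fell and none rose, while TRXM2 and 2CPA were not called. A gene counts as called where the q-value of the authors' deposited table is at most 0.05. There, 8.54% of the 22892 tested genes were called lower and 8.61% higher, 17.2% in all. Since well expressed genes are called more often, the share was also taken over the 6937 tested genes with a mean level at least that of TRXZ, the lowest of the 10. Among these, 11.1% were called lower and 12.5% higher. By an unadjusted p of at most 0.05 in the authors' deposited table, 9 of the 10 were lower and 0 higher. That looser threshold was met by 5889 of the 22892 tested genes, lower and higher ones counted alike. At a q-value of 0.01, 7 of the 10 genes were lower, against 6.52% of tested genes. All 10 ratios of phyA-1 over wild type lay below 0, from -1.23 to -0.15 on the scale of log2(FPKM + 1), with a median of -0.66 against 0.05 over all tested genes. For 6 of them the p-value in the authors' deposited table was at the lowest it gives, 5e-05, a value that 1668 genes share.

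**Figure D1:**
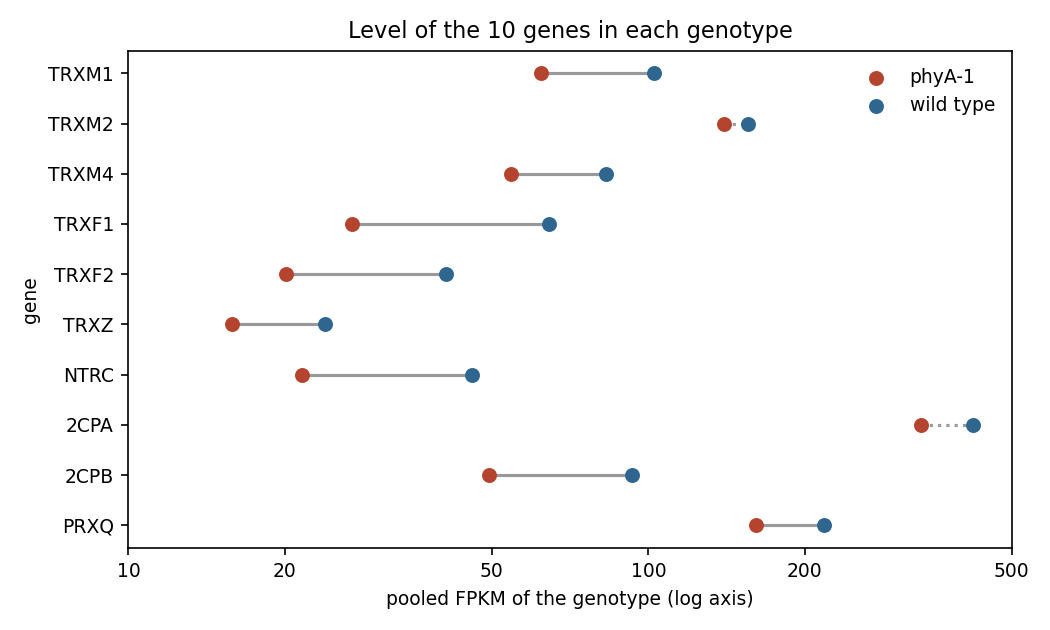
Pooled FPKM (log axis) of each of the 10 genes in phyA-1 (red) and wild type (blue), 1 value per genotype with no error bar. A solid line joins the points of the 8 genes called lower and a dotted line those of TRXM2 and 2CPA, and in all 10 the phyA-1 point is the lower.

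Both f-type thioredoxins fell, and TRXF1 had the lowest ratio of the 10 genes. They are the main activators of Calvin cycle enzymes such as fructose-1,6-bisphosphatase. TRXF1 (AT3G02730, TAIR10 chromosome 3, 588408 to 589685) had 64.3 and 26.9 FPKM, so that the mutant held 41.9% of the wild-type level (log2 ratio -1.23). TRXF2 (AT5G16400, chromosome 5, 5363661 to 5365334) had 40.9 and 20.1 FPKM, or 49.2% of wild type (log2 ratio -0.99). Both copies have q = 0.00045 in the authors' deposited table. Of all tested genes, 2.02% had a lower ratio than TRXF1 and 2.97% a lower one than TRXF2. The RefSeq annotation gives each of them 3 exons, and their coding sequences are identical at 82.3% of 525 aligned bases, with no exact run in common longer than 20 bases between the transcripts. TRXF1 was the higher copy in both genotypes, 1.57 times TRXF2 in wild type and 1.34 times in phyA-1.

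The m-type thioredoxins, which act on chloroplast malate dehydrogenase and on proteins of the thylakoid, were split. TRXM1 (AT1G03680, chromosome 1, 916819 to 918064) stood at 102 and 62.0 FPKM (log2 ratio -0.71). TRXM4 (AT3G15360, chromosome 3, 5188374 to 5189697) stood at 83.0 and 54.5 FPKM (-0.60). Both fell, and the authors' deposited table gives both q = 0.00045. TRXM2 (AT4G03520, chromosome 4, 1562359 to 1564192), the highest of the 3, had 155.3 and 139.8 FPKM (-0.15), and the authors' deposited table gives it q = 0.498. TRXM2 made up 45.6% of the summed m-type level in wild type and 54.5% in phyA-1. TRXM1 and TRXM2, the closest m-type pair, have coding sequences identical at 79.4% of 540 aligned bases, while TRXM4 matches them at 65.7% and 64.6%. Whether the ratio of TRXM2 differs from those of TRXM1 and TRXM4 was not tested, since the table holds no values per library.

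The longest run common to the transcripts of TRXM1 and TRXM2 is shown because reads inside it cannot be assigned to 1 of the copies. It is 31 bases long, codes for protein, and ends within the active site printed above, whose bases are in capitals in those lines.
TRXM1 and TRXM2: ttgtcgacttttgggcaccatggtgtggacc

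TRXz (AT3G06730, chromosome 3, 2124217 to 2126142) had the lowest level of the 10 genes in both genotypes, 23.9 and 15.8 FPKM. It fell to 66.0% of wild type (log2 ratio -0.57), and the authors' deposited table gives it q = 0.00157. The list of proteins that work with TRXz or the plastid polymerase held 5 genes (median log2 ratio -0.41). None rose, against 8.61% of all tested genes, and 2 fell, against 8.54%. These were the fructokinase-like genes FLN1 (AT3G54090, 10.3 and 7.40 FPKM) and FLN2 (AT1G69200, 11.6 and 6.84 FPKM), the second of which shares its locus in the table with AT1G69210.

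NTRC (AT2G41680, chromosome 2, in a shared locus at 17374083 to 17379055) had 45.9 and 21.6 FPKM, the mutant holding 47.1% of the wild-type level (log2 ratio -1.05, q = 0.00045 in the authors' deposited table). The RefSeq model of NTRC alone spans 17376155 to 17379059. The ratio of NTRC was second to that of TRXF1. NTRC was the 1 gene among the 10 that shares its locus in the table with another gene, AT2G41670, whose own levels were 1.92 and 1.23 FPKM. At those levels the neighbour is far below NTRC in both genotypes, although the division of reads from overlapping ends was not measured here.

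Of the 3 peroxiredoxins, 2CPB and PRXQ fell and 2CPA was not called, and 2CPA and PRXQ had the highest levels of the 10 genes. 2CPA (AT3G11630, chromosome 3, 3672120 to 3674075) had 421 and 335 FPKM (log2 ratio -0.33). In the authors' deposited table it has p = 0.0421 and q = 0.131. Its copy 2CPB (AT5G06290, chromosome 5, 1919213 to 1921425) fell from 92.9 to 49.4 FPKM (-0.90; q = 0.00045 in the authors' deposited table). 2CPA stood at 4.54 times the level of 2CPB in wild type and 6.78 times in phyA-1. Such a ratio within a genotype does not depend on how the genotypes were scaled, but it has no error, and the difference between genotypes was not tested. PRXQ (AT3G26060, chromosome 3, 9524725 to 9526407), a monomeric thylakoid-associated peroxiredoxin reduced by thioredoxins, had 217.6 and 160.8 FPKM. It fell to 73.9% of wild type (-0.43), and its q-value of 0.0191 in the authors' deposited table is the highest among the 8 called genes.

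The 2-Cys copies have coding sequences identical at 83.5% of 800 aligned bases. The longest run that their transcripts have in common, 38 bases of coding sequence, is the longest within the 3 families with copies here.
2CPA and 2CPB: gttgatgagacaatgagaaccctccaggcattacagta
Read length, and how reads that match both copies were handled, were not stated in the sources used here. Levels of single copies are therefore less certain than the family sums, which were 514 and 384.6 FPKM for the 2-Cys pair, 340.8 and 256 for the 3 m-type genes, and 105 and 47.0 for the f-type pair.

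**Figure D2:**
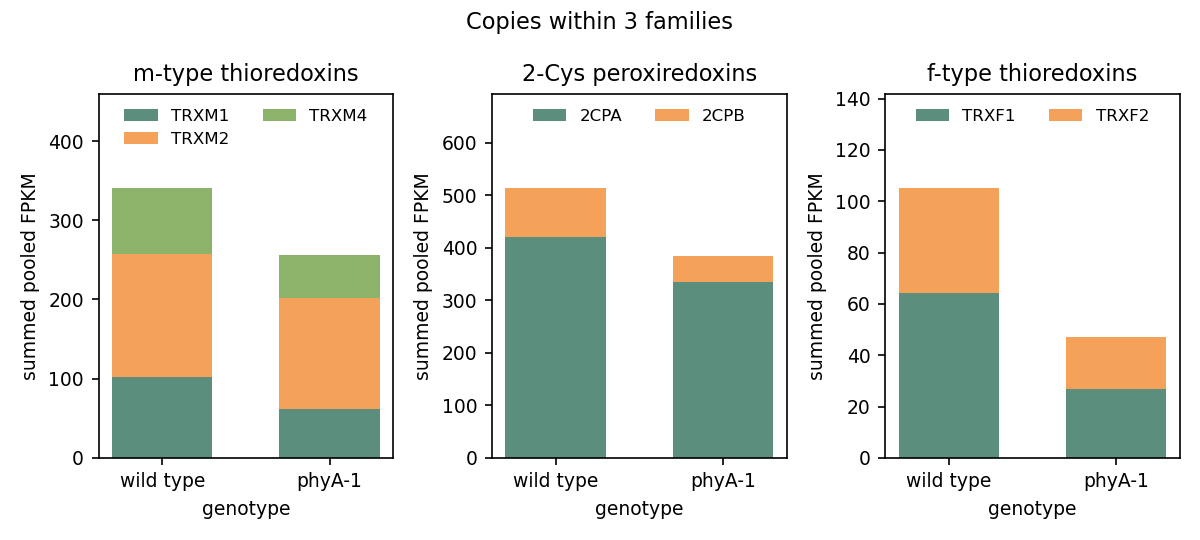
Summed pooled FPKM of the copies in the m-type, 2-Cys and f-type families, with wild type on the left and phyA-1 on the right of each panel and each colour a gene (each vertical axis starts at 0 and has its own range). TRXM2 takes 54.5% of the m-type bar in phyA-1 against 45.6% in wild type, and 2CPA 87.1% of the 2-Cys bar against 81.9%.

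Ordered by level in wild type, the genes ran 2CPA, PRXQ, TRXM2, TRXM1, 2CPB, TRXM4, TRXF1, NTRC, TRXF2 and TRXZ. In phyA-1 the order was the same except that TRXM4 stood above 2CPB. With 1 pooled value per genotype it cannot be said which neighbours in that order differ beyond replicate spread. The mean level of TRXZ was above that of 69.7% of tested genes, and that of 2CPA above 98.7%. The 3 genes with the highest levels, 2CPA, PRXQ and TRXM2, had the 3 ratios nearest 0. The remaining 7 ran from -1.23 to -0.57.

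**Figure D3:**
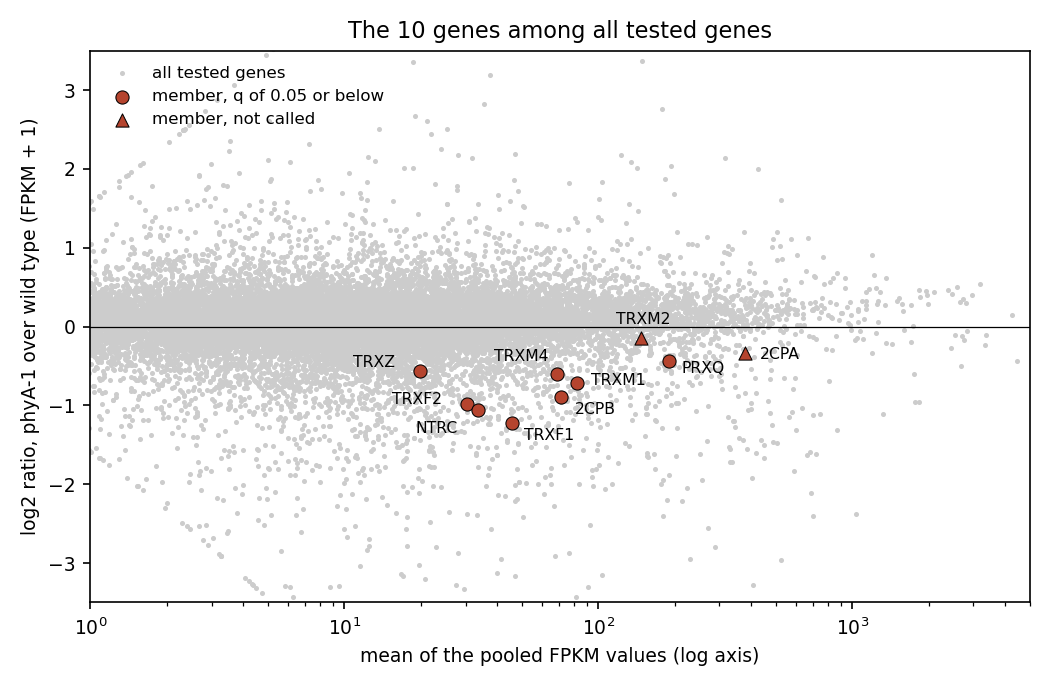
Log2 ratio of phyA-1 over wild type, as FPKM + 1, against the mean of the pooled FPKM values (log axis) for all tested genes within the plotted range (grey) and for the 10 genes (red circles called, red triangles not called). The 10 genes lie below 0, between -1.23 and -0.15, with 2CPA, PRXQ and TRXM2 at the right and nearest to 0.

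Of 8 genes of electron supply, to the plastid thioredoxins or as NADPH, 5 fell, none rose and 3 were not called, with a median log2 ratio of -0.70. The shares over all tested genes were 8.54% called lower and 8.61% higher. The leaf ferredoxin genes FD1 (AT1G10960, 1089 and 356 FPKM, log2 ratio -1.61) and FD2 (AT1G60950, 1246 and 501 FPKM, -1.31) fell most. The ferredoxin-NADP reductase genes LFNR2 (AT1G20020, -1.09) and LFNR1 (AT5G66190, -0.99, locus shared), whose products make NADPH, fell as well. They are counted among the 8 because NTRC draws on NADPH, and are not part of the route through ferredoxin-thioredoxin reductase. For ferredoxin-thioredoxin reductase itself, FTRA2 (AT5G08410), of the variable subunit, fell from 30.9 to 22.9 FPKM, a call lost under Benjamini-Hochberg adjustment over all tested genes. The second gene of that subunit, FTRA1 (AT5G23440), had 10.8 and 11.6 FPKM. FTRB (AT2G04700), the catalytic subunit, had 70.0 and 57.0 FPKM, and its q-value in the authors' deposited table was 0.135. The root-type ferredoxin gene FD3 (AT2G27510) had 259.8 and 263.6 FPKM.

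Downstream, 12 of 13 known targets of plastid thioredoxins fell and none rose, with a median log2 ratio of -1.01. As above, 8.54% of all tested genes were called lower and 8.61% higher. CP12-2 (AT3G62410, -2.42), which holds Calvin cycle enzymes in an inactive complex, RCA (AT2G39730, Rubisco activase, -1.59) and ATPC1 (AT4G04640, the gamma subunit of the plastid ATP synthase, -1.20) had the lowest ratios on the FPKM + 1 scale. GWD1 (AT1G10760), a starch-phosphorylating enzyme, was the 1 target not called, at 25.0 and 20.02 FPKM. Among the called targets, FBPase (AT3G54050), NADP-MDH (AT5G58330) and CHLI2 (AT5G45930) share their loci in the table with other genes. The neighbour of CHLI2, AT5G45940, had 36.9 and 41.4 FPKM, above the 27.6 and 15.8 FPKM of CHLI2 itself. G6PD1 (AT5G35790), of the oxidative pentose phosphate pathway, which thioredoxins switch off rather than on, had 25.1 and 10.6 FPKM and fell to 42.3% of wild type, against 43.4% for ATPC1, so without the pseudocount it stands below ATPC1. It is named after its value was seen.

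Among 13 other plastid thioredoxins, of which 12 were tested, 5 fell, 2 rose and 5 were not called, and the median log2 ratio was -0.08. Calls over all tested genes were 8.54% lower and 8.61% higher. CDSP32 (AT1G76080), a drought-induced protein with 2 thioredoxin folds, had 50.2 and 6.02 FPKM (-2.87), a larger fall than in any of the 10 genes. ACHT4 (AT1G08570, 115 and 63.6 FPKM, -0.84), TRXY2 (AT1G43560, -0.71), HCF164 (AT4G37200, -0.51, locus shared) and TRXX (AT1G50320, -0.50) also fell, HCF164 not under Benjamini-Hochberg adjustment. WCRKC1 (AT5G06690) rose from 9.94 to 18.9 FPKM (0.86), and ACHT5 (AT5G61440) from 11.97 to 20.6 (0.73). TRXM3 (AT2G15570), the m-type gene outside the 10, had 50.2 and 59.0 FPKM, and the authors' deposited table gives it q = 0.269. ACHT3 was not tested and is listed at 0 in phyA-1.

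Outside the plastid, none of 12 thioredoxin and thioredoxin reductase genes fell and 3 rose, with a median log2 ratio of 0.19. Over all tested genes, 8.54% were called lower and 8.61% higher. The h-type genes TRXH2 (AT5G39950, 0.59, locus shared) and TRXH5 (AT1G45145, 247 and 329 FPKM, 0.41) and the mitochondrial TRXO2 (AT1G31020, 0.45) were those that rose, TRXO2 not under Benjamini-Hochberg adjustment. TRXH7 (AT1G59730, 5.50 and 3.17 FPKM) was the 1 lower gene with an unadjusted p under 0.05 in the authors' deposited table (p = 0.0121), and its q-value missed the threshold. NTRA and NTRB, the NADPH-thioredoxin reductases of cytosol and mitochondria, had 52.2 and 60.5 FPKM (NTRA) and 17.2 and 19.1 FPKM (NTRB), and neither was called. The difference between the plastid and the other lists was not tested.

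The other peroxiredoxin list, with sulfiredoxin and the plastid glutathione peroxidases, had 9 genes (median log2 ratio 0.21). None fell, also by an unadjusted p of 0.05 in the authors' deposited table, and 3 rose. For all tested genes the shares were 8.54% called lower and 8.61% higher. PRXIID (AT1G60740) had 4.10 and 9.95 FPKM (1.10). PER1 (AT1G48130), the 1-Cys peroxiredoxin of seeds, had 1.198 and 2.86 FPKM (0.81), beside the rise of 2 of 5 seed storage markers. PRXIIC (AT1G65970) had 667.7 and 1068 FPKM (0.68), a value made less certain by the locus it shares with AT1G65960 and by its similarity to PRXIIB and PRXIID. PRXIIE (AT3G52960), the type II peroxiredoxin of the plastid, had 274.5 and 234.9 FPKM, and its q-value in the authors' deposited table was 0.305. Sulfiredoxin (SRX, AT1G31170), which repairs over-oxidised 2-Cys peroxiredoxins, had 28.6 and 30.5 FPKM and was not called. The lowest ratio of this list was that of GPX7 (AT4G31870, -2.53), which was not called and is described under Other observations.

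**Figure D4:**
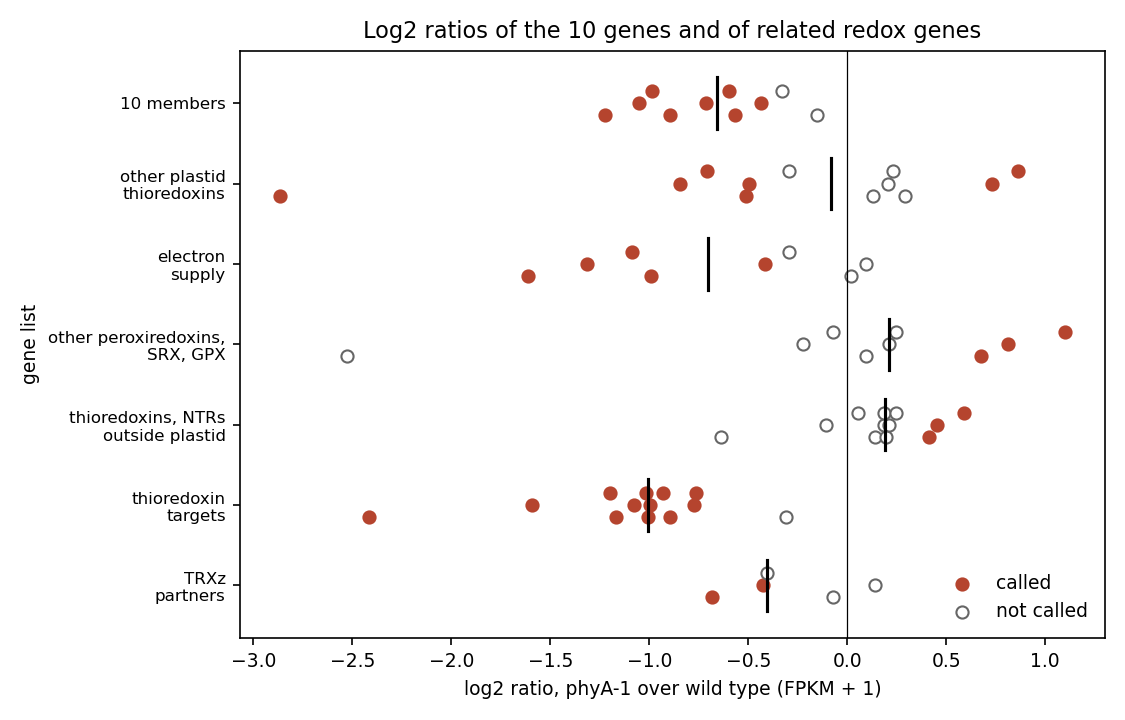
Log2 ratio of phyA-1 over wild type, as FPKM + 1, for the tested genes of each list, with filled points called in the authors' deposited table, open points not called and a black bar at the median. The medians of the 10 genes (-0.66), the electron supply (-0.70), the thioredoxin targets (-1.01) and the TRXz partners (-0.41) lie left of 0. That of the other plastid thioredoxins, with genes called in both directions, is near 0 (-0.08). Those of the thioredoxins outside the plastid (0.19) and the other peroxiredoxins (0.21) lie right of it.

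The 250 bases before the annotated start were searched for the G-box CACGTG, a site bound by HY5 and by PIF factors, and for its core ACGT, on both strands since each reads the same on either. None of the 10 windows holds CACGTG, against 6.49% of 27443 such windows of protein-coding genes. ACGT is in 2 of 10, those of TRXF2 (51 bases before the start) and 2CPB (75 before), against 44.1% of all windows, and every CACGTG contains it. Of the 10 windows, 6 overlap another annotated gene, both of these among them. The windows of the genes with the largest fall and with the ratio nearest 0, TRXF1 at chr3:589694-589943 and TRXM2 at chr4:1564205-1564454, are shown as the contrast in the table. Both are on the minus strand of TAIR10.1, and as neither holds a match there are no capitals.
TRXF1: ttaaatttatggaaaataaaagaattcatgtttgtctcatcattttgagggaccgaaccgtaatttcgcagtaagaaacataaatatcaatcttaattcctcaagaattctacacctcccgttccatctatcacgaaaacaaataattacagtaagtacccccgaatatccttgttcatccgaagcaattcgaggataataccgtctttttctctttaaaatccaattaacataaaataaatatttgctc
TRXM2: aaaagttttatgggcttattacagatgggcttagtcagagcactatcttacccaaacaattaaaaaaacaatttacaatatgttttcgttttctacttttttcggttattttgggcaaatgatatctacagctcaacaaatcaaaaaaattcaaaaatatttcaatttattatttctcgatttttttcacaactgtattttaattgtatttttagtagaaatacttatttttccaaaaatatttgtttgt
No match says only that these letters are not in these windows of the reference, and the Landsberg erecta windows were not read.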

How the data were processed

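One table of the whole series was used, with no header. Per the submitters' processing notes, Bowtie and TAIR10 were used. No tool for estimating levels or testing genes was given in the sources used here. The authors deposited 1 FPKM value per gene and genotype, which pools 3 libraries, with a log2 ratio, a test score, and p- and q-values. The deposited log2 ratio (wild type over phyA-1) was within 0.001 of that of the FPKM columns in 99.97% of tested genes that have a finite one. Strand was likewise not stated. Since only pooled values were used, no SD, count test or depth could be computed.

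Ratios were computed as log2(FPKM + 1) of phyA-1 less that of wild type, which understates changes of low genes. Calls are the deposited q-value at 0.05. Alternatives used a q-value of 0.01, Benjamini-Hochberg adjustment (checked on simulated data), other pseudocounts and other scalings. Table coordinates are written 1-based. Gene models and bases were read from the RefSeq TAIR10.1 assembly, where all 10 genes matched. Of 23939 table loci compared, 98.3% had both ends within 1000 bases of its genes. Coding sequences were aligned globally with Biopython 1.88 (the planned protein comparison was replaced by this). Named besides the 10 genes are up to 3 called genes per list by size of ratio. Others were named after their values were seen. Members and lists were chosen with earlier results of these data known.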

Additional observations from a re-analysis of the deposited data

How the results depend on the processing

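The 8 calls among the 10 genes were kept, with none higher, under Benjamini-Hochberg adjustment of the deposited p-values over all tested genes and over those with a mean of at least 5 FPKM. At a q-value of 0.01 PRXQ was lost (q = 0.0191), leaving 7 genes, and without NTRC, whose locus is shared, 7 remained. Asking also for a 1.5-fold difference on the FPKM + 1 scale left 6, without PRXQ and TRXZ, although TRXZ reaches 1.51-fold on FPKM itself. Under pseudocounts of 0.1 and 5, the deposited log2 ratio and both other scalings, every ratio stayed below 0, from -0.22 to -0.15 for TRXM2 and from -1.30 to -1.12 for TRXF1. At a q-value of 0.01 the thioredoxins outside the plastid had 1 higher gene instead of 3, and the partners of TRXz 1 lower gene instead of 2. HCF164, FTRA2 and TRXO2 lost their calls both there and under Benjamini-Hochberg adjustment over all tested genes (adjusted values of 0.0539, 0.0576 and 0.0549), and the adjustment left 4 lower genes among the other plastid thioredoxins, 4 in the electron supply and 2 higher genes outside the plastid. PRXIIC, TRXH5 and FLN1 lost theirs at a q-value of 0.01 alone. No paired analysis was possible because the table holds 1 pooled value per genotype, and for the same reason no replicate could be left out. Depth per library is unknown, and p-values end at 5e-05, so genes at that value cannot be ranked by it.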

Other observations

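GPX7 (AT4G31870), a plastid glutathione peroxidase gene, had 5.28 FPKM in wild type and 0.0913 in the mutant (log2 ratio -2.53) but was not called, with p = 0.237 and q = 0.435 in the authors' deposited table. Its relative GPX1 (AT2G25080) had 117 and 111 FPKM. Among tested genes with a ratio at least as large in either direction, 65 of 115 were called and 50 were not. Of those reaching 5 FPKM in either genotype, 47 of 112 were not called. How the authors' test weighed replicate spread in such genes cannot be read from pooled values.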
